A study of Mus musculus with 8 samples.

Results

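The hypoxia response was examined through 10 genes, chosen by name because they are well-known parts or targets of the pathway by which cells sense oxygen. They are Hif1a, Egln1, Egln3, Vegfa, Bnip3, Ankrd37, Adm, Ndrg1, P4ha1 and Higd1a, out of 50686 gene identifiers in the deposited count table. These 10 genes, and the gene lists used below, were chosen with earlier results of these data known. All 10 were detected in every library and passed the filter on low counts, which kept 20473 genes. Their levels were measured by RNA-seq of mouse embryonic stem cells (mESCs) as 8 libraries, 1 for each combination of location (Space or Ground), genotype (R9wt, labelled wild type, or R9del, labelled Rad9-/-) and culture duration (D1 or D5, for 1 or 5 days). No condition had a replicate, so each group comparison set 4 libraries of different conditions against 4 others, and its p-values measure the spread between those libraries. Rad9a, the gene knocked out in R9del, encodes a subunit of a DNA damage checkpoint clamp.

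In the hypoxia response, oxygen is used by the prolyl hydroxylases encoded by the Egln genes to mark the alpha subunits of hypoxia-inducible factor (HIF), which the Vhl ubiquitin ligase then removes. When oxygen is low, HIF-1 alpha, the protein of Hif1a, is stabilized, pairs with Arnt and binds short DNA sites near genes for glycolysis, vessel growth, mitophagy and matrix synthesis. Egln3 and, in many cells, Egln1 are themselves HIF targets, so that the pathway feeds back on its own sensor, while the activity of HIF-1 alpha is set mostly at the level of the protein, which RNA-seq does not measure.

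Both genotypes and both locations were cultured in the same kind of sealed, airtight payload. Its culture devices let gas through but had no controller of oxygen or carbon dioxide, in space and on the ground alike. The D1 and D5 devices formed separate groups with a temperature control each, and fewer cells were seeded for D5 than for D1, with different numbers for R9wt and R9del at D5. Culture duration, device group and seeding number therefore cannot be told apart. The space cultures also went through the vibration of launch and return. Gas levels in the devices are not part of the data used here. In these bulk libraries, fewer cells with a transcript and less of it per cell cannot be told apart.

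The 8 libraries held between 58238440 and 96416907 counts, and the 10 genes had between 206 and 29896 counts each in a library. Levels are given as CPM (counts relative to the library total, on the usual scale of that unit), scaled with edgeR's TMM factors. Rad9a stood at 70.3 to 93.4 CPM in the 4 R9wt libraries and at 20.8 to 28.6 CPM in the 4 R9del libraries, and its log2 fold change in R9del against R9wt was -1.75 ± 0.21 (SE, 4 libraries against 4; edgeR adjusted p = 0.0277, and between 0.0328 and 0.103 with 1 library left out). Embryonic stem cell markers summed to between 5402 and 8703 CPM in all libraries, and the 10 fibroblast markers to between 53.2 and 197 CPM. Of the fibroblast markers, Fbln1 (25.1 to 142 CPM), Thy1 (11.8 to 38.7 CPM) and Col1a1 (3.85 to 10.4 CPM) were detected in every library, Col1a2 and Col6a1 reached 8.88 and 4.55 CPM, and Col3a1, Dcn, Lum, Postn and Twist2 stayed below 1 CPM everywhere. Of the 8 libraries, Ground_R9wt_D5 stood apart for several of the 10 genes, as described below, and each group comparison was repeated without it.

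Per kilobase of exon, Bnip3 had the highest mean of the 10 genes (84.2 CPM per kb), at 19.98 to 150.3 over the 8 libraries. It was followed by P4ha1 (mean 50.6, 18.2 to 110.5) and Higd1a (mean 38.2, 18.5 to 61.9). In Ground_R9wt_D5, however, Bnip3 (19.98) lay below Higd1a (36.3) and P4ha1 (29.0). Vegfa was the least abundant, at 0.812 to 5.67 CPM per kb. The ranges of neighbouring genes in this order overlapped. Egln3 had the widest range of levels between libraries, with 10.6 times as much in the highest as in the lowest library, and Ndrg1 the narrowest, with 2.45 times.

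HIF binds DNA at a short core, ACGTG or GCGTG, and the RefSeq promoter windows (GRCm38.p6 build, the 250 bases before the transcript start) were searched for these letters on both strands. A promoter window was at hand for 9 of the 10 genes, with a pair of starts for Vegfa. The upstream window of Vegfa (chr17:46032378-46032627, minus strand) held 0 of either core. Its matches counted below lay in the window of the start further downstream (chr17:46025164-46025413). ACGTG was found in 7 of these 10 windows and GCGTG in 7, with at least 1 of them in 9, against 16.6%, 28.2% and 38.6% of the 32851 promoter windows in the table. The 10 windows were between 50.8% and 86.0% G and C, whose part in these shares was not tested, and a match is a description of the letters and not a binding site. The windows of Egln1, Egln3, Bnip3 and Ankrd37 are printed because these 4 genes shared the same lowest library, and that of P4ha1 because it was higher in space in all 4 matched pairs. Capitals mark ACGTG and GCGTG, or CACGT and CACGC where the core lies on the other strand. In Bnip3 the core ACGTG lies on both strands of the same CACGTG, and in Ankrd37 the 2 forms of GCGTG overlap in CACGCGTG.
The window of Egln1 (chr8:124949255-124949504, minus strand) holds both cores:
Egln1: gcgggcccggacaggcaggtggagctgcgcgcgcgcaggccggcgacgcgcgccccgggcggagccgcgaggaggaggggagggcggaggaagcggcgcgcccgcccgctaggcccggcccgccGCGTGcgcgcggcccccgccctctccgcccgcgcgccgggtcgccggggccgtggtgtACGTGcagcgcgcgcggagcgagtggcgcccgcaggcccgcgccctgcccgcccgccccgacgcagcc
The window of Egln3 (chr12:54203875-54204124, minus strand) holds 1 ACGTG and no GCGTG:
Egln3: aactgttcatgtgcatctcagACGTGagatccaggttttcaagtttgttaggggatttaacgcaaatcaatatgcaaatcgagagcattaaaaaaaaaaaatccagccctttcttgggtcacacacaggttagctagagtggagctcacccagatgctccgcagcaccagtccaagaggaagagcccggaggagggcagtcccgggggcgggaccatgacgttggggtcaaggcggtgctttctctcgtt
The window of Bnip3 (chr7:138909507-138909756, minus strand) holds both cores:
Bnip3: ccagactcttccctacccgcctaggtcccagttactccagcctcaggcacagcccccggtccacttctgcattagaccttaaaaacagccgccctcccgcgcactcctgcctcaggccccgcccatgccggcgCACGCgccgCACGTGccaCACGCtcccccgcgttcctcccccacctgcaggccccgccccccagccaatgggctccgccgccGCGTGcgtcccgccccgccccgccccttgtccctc
The window of Ankrd37 (chr8:45999851-46000100, minus strand) holds both cores:
Ankrd37: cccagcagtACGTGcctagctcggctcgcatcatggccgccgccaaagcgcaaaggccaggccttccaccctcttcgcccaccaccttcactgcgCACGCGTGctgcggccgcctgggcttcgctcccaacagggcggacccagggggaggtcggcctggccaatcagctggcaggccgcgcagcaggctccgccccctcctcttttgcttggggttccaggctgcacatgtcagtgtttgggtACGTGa
The window of P4ha1 (chr10:59323046-59323295, plus strand) holds both cores:
P4ha1: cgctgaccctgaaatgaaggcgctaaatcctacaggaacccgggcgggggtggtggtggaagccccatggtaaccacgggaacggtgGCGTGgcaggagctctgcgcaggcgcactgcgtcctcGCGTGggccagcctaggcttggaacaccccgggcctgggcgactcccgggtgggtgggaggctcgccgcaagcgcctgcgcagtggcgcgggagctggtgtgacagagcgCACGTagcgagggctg

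**Figure D1:**
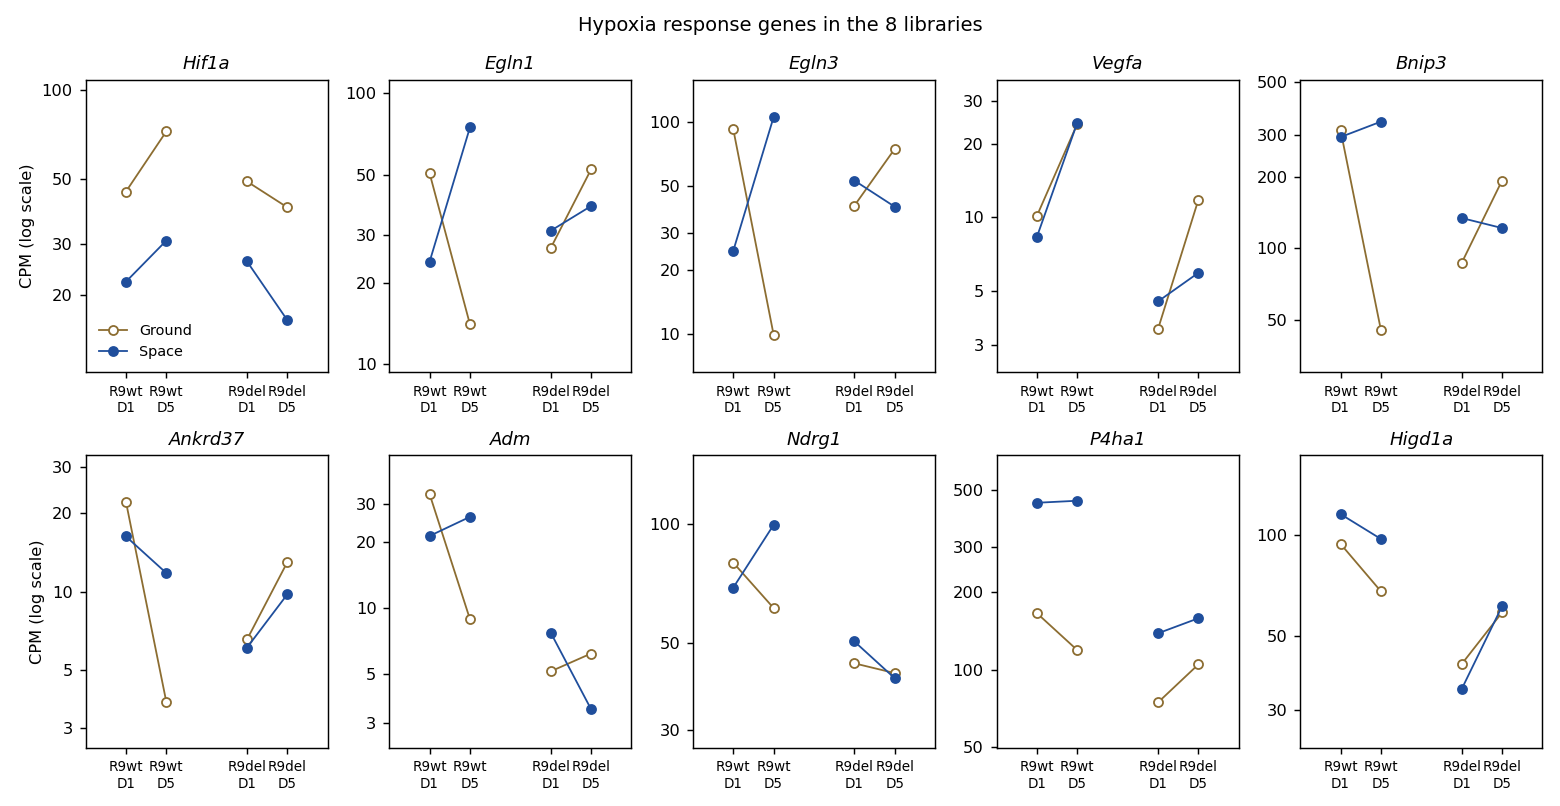
CPM of the 10 genes in the 8 libraries on log axes, with 1 point per library, open for Ground and filled for Space, and lines joining D1 to D5 of the same genotype and location. Hif1a is higher in every Ground library than in any Space library, and Egln1, Egln3, Bnip3 and Ankrd37 are lowest in Ground_R9wt_D5.

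The comparison of space with ground asked how spaceflight changed these genes over both genotypes and both culture durations. Hif1a, the oxygen-regulated alpha subunit of HIF-1 (chr12:75002362-75048517 in mm9, plus strand), was the only 1 of the 10 that passed an adjusted p under 0.05. Its levels on the ground were 45.1 CPM in R9wt at D1, 72.3 in R9wt at D5, 48.9 in R9del at D1 and 39.9 in R9del at D5. In space they were 22.3, 30.7, 26.1 and 16.5 CPM in the same order. All 4 space libraries lay below all 4 ground libraries, with means of 23.9 ± 6.04 against 51.5 ± 14.3 CPM (SD, n = 4 each), and the space library was the lower one in all 4 matched pairs. Hif1a fell by 1.07 on the log2 scale in space (SE 0.27, 95% interval -1.68 to -0.47; edgeR quasi-likelihood test, Benjamini-Hochberg adjusted p = 0.0448). A block for the matched pairs gave an adjusted p of 0.0142 in edgeR. The call was lost when any 1 of the 8 libraries was left out (edgeR adjusted p between 0.0559 and 0.111) and with a correction for GC content (log2 fold change -0.82, edgeR adjusted p = 0.171), the exons of Hif1a being 40.1% G and C. Over all genes, 5.13% were called lower in space and 1.19% higher, against 1 and 0 of the 10 genes. The share of all genes with every space library below every ground library was 9.37%, and 5.07% had the reverse, against 1 and 0 of the 10 genes. Markers of cell types differed by location in the same libraries. The fibroblast markers summed to 89.2 to 197 CPM on the ground and 53.2 to 68.2 CPM in space, with Fbln1 the 1 of 10 that passed the edgeR test (log2 fold change -1.61, adjusted p = 0.0107). Without Fbln1 the other 9 summed to 23.98 to 54.2 CPM on the ground and 27.3 to 43.0 CPM in space, which overlap, and the median log2 fold change of the 7 fibroblast markers tested was 0.27. Among 10 embryonic stem cell markers, Sox2 was lower (-0.94, edgeR adjusted p = 0.0317) and Esrrb higher (1.20, edgeR adjusted p = 0.00635) in space, with list sums of 5733 to 8703 CPM on the ground and 5402 to 6686 CPM in space. Among 10 primitive endoderm markers Sox17 was lower (-3.88, edgeR adjusted p = 0.0187) and 0 were called higher. The median log2 fold change of these 10 was 0.91, in the other direction. The list summed to 454 to 821 CPM on the ground and 532 to 1866 CPM in space, mostly Sparc. Without Sparc the other 9 summed to 30.95 to 68.7 CPM on the ground and 17.3 to 222 CPM in space. The part of these markers in the levels of the 10 genes was not tested. Over the exons of Hif1a, 5.60% of the bases overlap Gm15283 on the opposite strand, and whether strand was used in counting is not given in the sources used here.

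P4ha1, the catalytic subunit of collagen prolyl 4-hydroxylase (chr10:58786044-58836052 in mm9, plus strand), went the other way. Its levels on the ground were 166 CPM in R9wt at D1, 119 in R9wt at D5, 74.8 in R9del at D1 and 105 in R9del at D5, and in space 446, 455, 139 and 159 CPM in the same order. Both R9wt space libraries stood far above all others, and the R9del space libraries fell within the range of ground R9wt. The log2 fold change was 1.40 ± 0.43 (SE; 95% interval 0.45 to 2.36), with the space library higher in 4 of 4 pairs, and the edgeR adjusted p was 0.0926. A block for the matched pairs gave a log2 fold change of 1.24, and P4ha1 then passed the test (edgeR adjusted p = 0.0209), so that with the block 1 of the 10 genes was called higher in space and 1 lower, against 2.16% and 6.52% of all genes. By the rule the study used for its groups, a fold change of at least 2 with an unadjusted p under 0.05, P4ha1 was higher and Hif1a lower, 1 gene each, against 2.91% and 7.97% of all genes. Without Ground_R9wt_D5 the log2 fold change of P4ha1 was 1.40 (edgeR adjusted p = 0.166).

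The other 8 genes did not pass the test between space and ground. Their log2 fold changes lay between -0.16 for Vegfa and 0.52 for Bnip3, with edgeR adjusted p-values between 0.698 and 0.996 and wide intervals, such as -0.73 to 1.77 for Bnip3 and -1.31 to 1.44 for Egln3. That of Bnip3 was 1.05 without Ground_R9wt_D1 and 0.19 without Ground_R9wt_D5. For the prolyl hydroxylases Egln1 and Egln3, space was above ground in 2 of 4 pairs each and below it in the other 2. The median log2 fold change of the 10 genes was 0.20, and that of all genes tested was 0.05. 

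**Figure D2:**
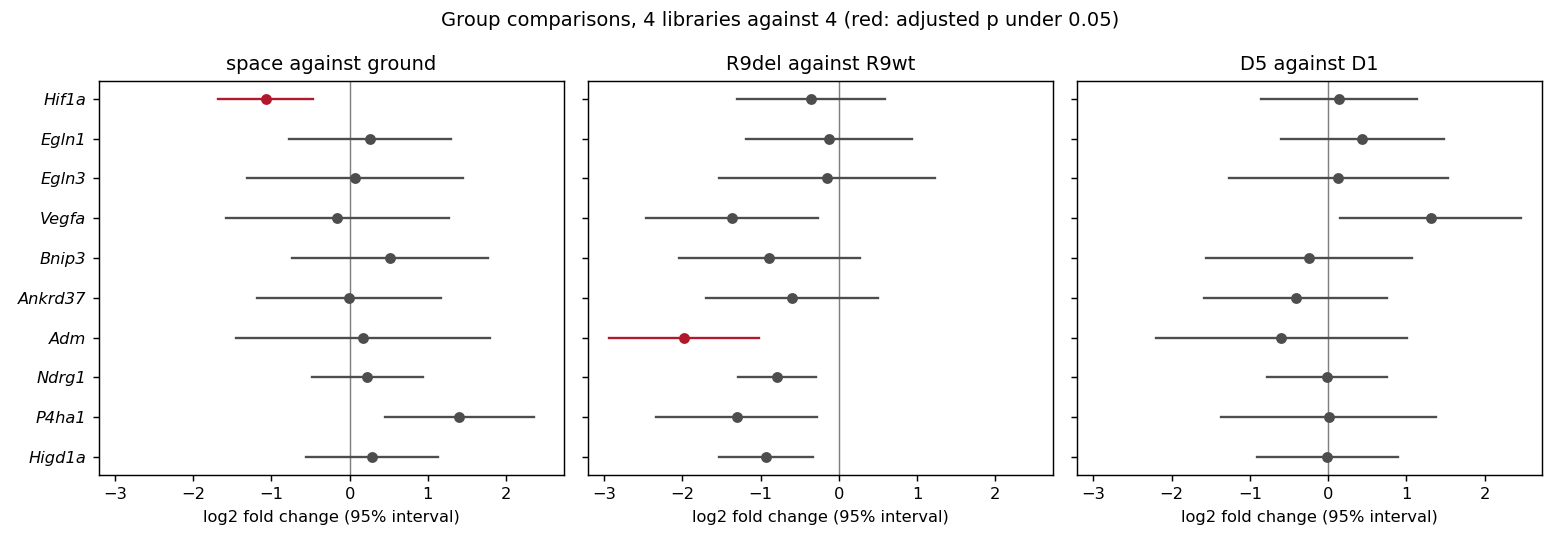
Log2 fold change of each gene with its 95% interval (edgeR quasi-likelihood fit, 4 libraries against 4) for space against ground, R9del against R9wt and D5 against D1. Hif1a in space and Adm in R9del, drawn in red, have an adjusted p under 0.05, and the intervals of the other genes are drawn in grey.

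A further 68 HIF pathway genes were listed from general knowledge, with earlier results of these data known. Of these, 3 passed the edgeR test between space and ground, all higher in space. Hif1an, which encodes the asparaginyl hydroxylase that limits HIF activity, stood at 30.4 to 39.0 CPM on the ground and 50.4 to 70.9 CPM in space, without overlap (log2 fold change 0.91 ± 0.20, SE, edgeR adjusted p = 0.0271). Slc2a3, a glucose transporter, stood at 1871 to 4003 CPM on the ground and 5355 to 13320 CPM in space (log2 fold change 1.67 ± 0.34, SE, edgeR adjusted p = 0.0162). P4hb, the partner of P4ha1 in collagen prolyl 4-hydroxylase, stood at 791 to 1195 CPM on the ground and 1502 to 1981 CPM in space (log2 fold change 0.82 ± 0.21, SE, edgeR adjusted p = 0.0477). Leaving out single libraries kept Slc2a3 called in 6 of 8 cases, Hif1an in 2 and P4hb in 0. P4ha2, another catalytic subunit, was looked up after these values were seen and had a log2 fold change of 1.13 ± 0.33 (SE, edgeR adjusted p = 0.079, and 0.0131 with the block). By list, 1 of 16 HIF subunits and regulators, 1 of 21 glucose-handling targets and 1 of 31 other targets were called higher and 0 lower, against 1.19% and 5.13% of all genes, with median log2 fold changes of 0.14, 0.44 and 0.22 beside 0.05 for all genes. With the matched pairs as a block, 7 of the 68 genes were called. Hif1an, Slc2a3, P4ha2, Epas1 (edgeR adjusted p = 0.0367) and Car12 (0.0408) were higher in space, against 2.16% of all genes, Ero1l (0.0327) and Ccng2 (0.0142) were lower, against 6.52%, and P4hb was no longer called (0.056).

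The comparison of R9del with R9wt asked which of the genes differed with loss of Rad9a. Adm, which encodes the secreted vasodilator peptide adrenomedullin (chr7:117771175-117773331 in mm9, plus strand), was the only 1 of the 10 called. Its levels in R9wt were 33.3 CPM on the ground at D1, 8.91 on the ground at D5, 21.4 in space after 1 day and 26.1 in space after 5 days. In R9del they were 5.14, 6.21, 7.73 and 3.45 CPM in the same order. All R9del libraries lay below all R9wt libraries, although the gap between Ground_R9wt_D5 and Space_R9del_D1 was small. The group means were 5.63 ± 1.80 in R9del and 22.4 ± 10.2 CPM in R9wt (SD, n = 4 each), and Adm fell by 1.98 on the log2 scale (SE 0.43, 95% interval -2.94 to -1.02; edgeR quasi-likelihood test, Benjamini-Hochberg adjusted p = 0.0495). The adjusted p was 0.0359 with the matched pairs as a block, and 0.0503 in edgeR with DESeq2's size factors. Leaving out any 1 library ended the call, with edgeR adjusted p-values between 0.067 and 0.152 and log2 fold changes between -2.26 and -1.75. Over all genes, 0.85% were called lower in R9del and 1.19% higher, against 1 and 0 of the 10 genes. The neural marker Tubb3 also differed by genotype, at 6.24 to 26.8 CPM in R9wt and 72.1 to 115 CPM in R9del (log2 fold change 2.68, edgeR adjusted p = 0.0328), while Neurog2 and Pax3 were below 1 CPM everywhere, and the part of these markers in the levels of the 10 genes was not tested.

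Vegfa, the main vessel growth factor among HIF targets (chr17:46153942-46169326 in mm9, minus strand), was lower in R9del in all 4 pairs. It stood at 10.1, 24.1, 8.30 and 24.4 CPM in R9wt (ground D1, ground D5, space D1, space D5), and at 3.48, 11.8, 4.52 and 5.92 CPM in R9del in the same order. The groups overlapped, since Ground_R9del_D5 lay above both R9wt libraries at D1. The log2 fold change was -1.37 ± 0.49 (SE; 95% interval -2.47 to -0.27), with an edgeR adjusted p of 0.164, and of 0.0287 with the matched pairs as a block. P4ha1 was likewise lower in R9del in 4 of 4 pairs, by the values given above, with a log2 fold change of -1.31 ± 0.46 (SE; edgeR adjusted p = 0.159, and 0.0392 with the block). With the block, Adm, Vegfa and P4ha1 were called lower, against 4.02% of all genes, and 0 of the 10 higher, against 4.44%. By the 2-fold rule Adm, Vegfa and P4ha1 were lower in R9del, 3 of 10 genes against 7.39% of all genes, and 0 were higher against 6.37%.

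Ndrg1 and Higd1a differed less in size but did not overlap between genotypes. Ndrg1, a stress-induced gene linked to growth arrest and differentiation (chr15:66760883-66801202 in mm9, minus strand), stood at 79.8, 61.2, 68.9 and 99.4 CPM in R9wt (ground D1, ground D5, space D1, space D5), and at 44.3, 41.9, 50.4 and 40.6 CPM in R9del. Higd1a, a small protein of the inner mitochondrial membrane (chr9:121757678-121767118 in mm9, minus strand), stood at 94.3, 68.0, 116 and 97.6 CPM in R9wt and at 41.1, 58.7, 34.6 and 61.3 CPM in R9del in the same order. For both genes the highest R9del level was under the lowest R9wt level. Ndrg1 had a log2 fold change of -0.79 ± 0.22 (SE; edgeR adjusted p = 0.0949) and Higd1a of -0.93 ± 0.27 (SE; edgeR adjusted p = 0.101), and DESeq2's Wald test called both (adjusted p of 0.0244 and 0.0339). With Adm, 3 of 10 genes were without overlap and lower in R9del against 7.19% of all genes, and 0 were higher against 7.1%. Of the 50-base stretches in the exons of Higd1a, 13.2% also occur elsewhere in the genome, so part of its reads may belong to another locus, and 8.43% of the Ndrg1 exon bases overlap Gm17035 and Gm2895 on the opposite strand.

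The other 5 genes were Hif1a, Egln1, Egln3, Bnip3 and Ankrd37, with log2 fold changes in R9del between -0.89 for Bnip3 and -0.13 for Egln1 and edgeR adjusted p-values between 0.373 and 0.916. The median over the 10 genes was -0.84, and that of all genes tested was -0.05. All 10 log2 fold changes were negative, but those of Egln1 and Egln3 became positive with the matched pairs as a block (0.08 and 0.30), and that of Hif1a was 0.0032 without Ground_R9wt_D5. Without that library the 2-fold rule called 4 of the 10 genes lower, and without Space_R9wt_D5 it called 1. Of the further pathway genes, 1 of 68 passed the edgeR test without a block, against 0.85% of all genes lower and 1.19% higher. It was Pdgfb, a platelet-derived growth factor chain, at 14.4 to 29.4 CPM in R9wt and 3.50 to 6.89 CPM in R9del (log2 fold change -2.19 ± 0.34, SE, edgeR adjusted p = 0.0317), and it stayed called in 2 of the 8 cases with 1 library left out, those without Ground_R9wt_D1 and without Ground_R9del_D5 (edgeR adjusted p between 0.0392 and 0.113). The medians were 0.08 over the HIF subunits and regulators, -0.15 over the glucose-handling targets and -0.36 over the other targets. With the matched pairs as a block, 8 of the 68 genes were called, 2 higher in R9del against 4.44% of all genes and 6 lower against 4.02%. The regulators Crebbp (edgeR adjusted p = 0.0274) and Egln2 (0.0443) were higher in R9del, and the targets Hk1 (0.00988), Pdgfb (0.00982), Pfkfb3 (0.0269), Bhlhe40 (0.0283), Vldlr (0.0291) and Ccng2 (0.0476) were lower.

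Between D5 and D1, 0 of the 10 genes and 0 of all 20473 genes (0% in either direction) had an adjusted p below 0.05 by the edgeR test, although 885 genes had an unadjusted p under 0.05 and DESeq2's Wald test called 90 genes, none of the 10 among them. Vegfa was the only 1 of the 10 past the 2-fold rule, higher at D5 in 4 of 4 pairs with a mean of 16.5 ± 9.20 against 6.61 ± 3.13 CPM at D1 (SD, n = 4 each). Its log2 fold change was 1.31 ± 0.52 (SE; 95% interval 0.15 to 2.47; edgeR adjusted p = 1), and it no longer passed the 2-fold rule when Ground_R9wt_D5, Ground_R9del_D1, Space_R9wt_D5 or Space_R9del_D1 was left out. In all, 1 of 10 genes was higher by that rule against 2.35% of all genes, and 0 were lower against 1.08%. The groups overlapped for all 10 genes, while 1.68% of all genes were without overlap and higher at D5 and 1.17% lower. The log2 fold changes of the other 9 genes lay between -0.60 for Adm and 0.44 for Egln1. Primitive endoderm markers summed to between 454 and 743 CPM at D1 and between 693 and 1866 CPM at D5. The sum was higher at D5 in 3 of the 4 matched pairs and lower in R9del on the ground (743 CPM at D1 and 693 at D5, mostly Sparc), while without Sparc the other 9 markers summed higher at D5 in all 4 pairs (17.3 to 67.5 CPM at D1 and 51.2 to 222 CPM at D5). By the 2-fold rule 5 of these 10 markers were higher, 0 passed an adjusted p under 0.05 in edgeR, Ttr was below 1 CPM throughout, and their part in the levels of the 10 genes was not tested.

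For several of the 10 genes, though not for Vegfa, the matched pairs of D5 and D1 differed in opposite directions. Single conditions were therefore followed in the 12 comparisons of 2 libraries that differ in 1 variable. These have no replicate and no test, and were counted at a 2-fold difference in CPM among the 17597 genes with at least 1 CPM in some library. Egln1, which encodes the main prolyl hydroxylase acting on HIF alpha subunits (chr8:127432496-127473154 in mm9, minus strand), stood on the ground at 50.8 CPM in R9wt at D1, 14.1 in R9wt at D5, 26.8 in R9del at D1 and 52.4 in R9del at D5. In space it stood at 23.9, 74.8, 31.1 and 38.4 CPM in the same order. Its lowest library was thus Ground_R9wt_D5 and its highest Space_R9wt_D5, the same cells at the same day in the other location. Egln3, the hypoxia-induced prolyl hydroxylase (chr12:55279968-55304847 in mm9, minus strand), had the same lowest and highest library and a wider range, at 92.4, 9.93, 40.2 and 74.5 CPM on the ground and 24.6, 105, 52.9 and 39.8 CPM in space. In R9wt, the log2 ratio of D5 to D1 for Egln3 was -3.21 on the ground and 2.09 in space.

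Bnip3, an outer mitochondrial membrane protein that drives mitophagy (chr7:146082519-146101202 in mm9, minus strand), stood at 313 CPM in Ground_R9wt_D1 and at 45.2 CPM in Ground_R9wt_D5. The other R9wt libraries were at 293 CPM in Space_R9wt_D1 and 340 CPM in Space_R9wt_D5, and the R9del libraries at 86.7, 192, 134 and 122 CPM (ground D1, ground D5, space D1, space D5). Apart from Ground_R9wt_D5 the R9wt libraries lay close together. Of the 50-base stretches in the Bnip3 exons, 45.2% also occur elsewhere in the genome, so its counts depend on how reads with several matches were treated. Ankrd37, an ankyrin repeat protein gene and HIF target (chr8:47082256-47085221 in mm9, minus strand), stood at 22.1, 3.80, 6.56 and 13.0 CPM on the ground and 16.3, 11.8, 6.11 and 9.78 CPM in space, in the order R9wt D1, R9wt D5, R9del D1 and R9del D5. It too was lowest in Ground_R9wt_D5. Lrp2bp and Ufsp2 on the opposite strand overlap 28.9% of its exon bases, and their reads cannot be told apart from its own if strand was not used.

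Together, 4 of the 10 genes were lowest in Ground_R9wt_D5, against 18.8% of all genes, and 6 were highest in Space_R9wt_D5 (Egln1, Egln3, Vegfa, Bnip3, Ndrg1 and P4ha1), against 13.8%. Both libraries were singled out after the values were seen. Space_R9del_D5 was lowest for 3 of the 10 genes (Hif1a, Adm and Ndrg1), against 9.94% of all genes. Hif1a itself was highest in Ground_R9wt_D5, the library with the lowest Egln1, Egln3, Bnip3 and Ankrd37. Among the marker lists, Ground_R9wt_D5 had the highest fibroblast sum (196.6 CPM, mostly Fbln1 at 142 CPM, against 53.2 to 147 CPM elsewhere), the lowest Tdgf1 (202 CPM against 460 to 1129 CPM) and an embryonic stem cell marker sum of 7588 CPM, of which Dppa5a made up 4602 CPM, its highest level. The other 9 of these markers summed to 2986 CPM there, the lowest of the 8 libraries (3357 to 6018 CPM elsewhere). Space_R9wt_D5 had the highest sum of the 8 mesoderm markers, at 147 CPM against 18.0 to 82.9 CPM elsewhere, with Hand1 at 113 CPM and Mesp1 below 1 CPM in all libraries, and a primitive endoderm sum of 1615 CPM. Ground_R9wt_D5 was also the library with the most counts. The part of these differences in the levels of the 10 genes was not tested.

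**Figure D3:**
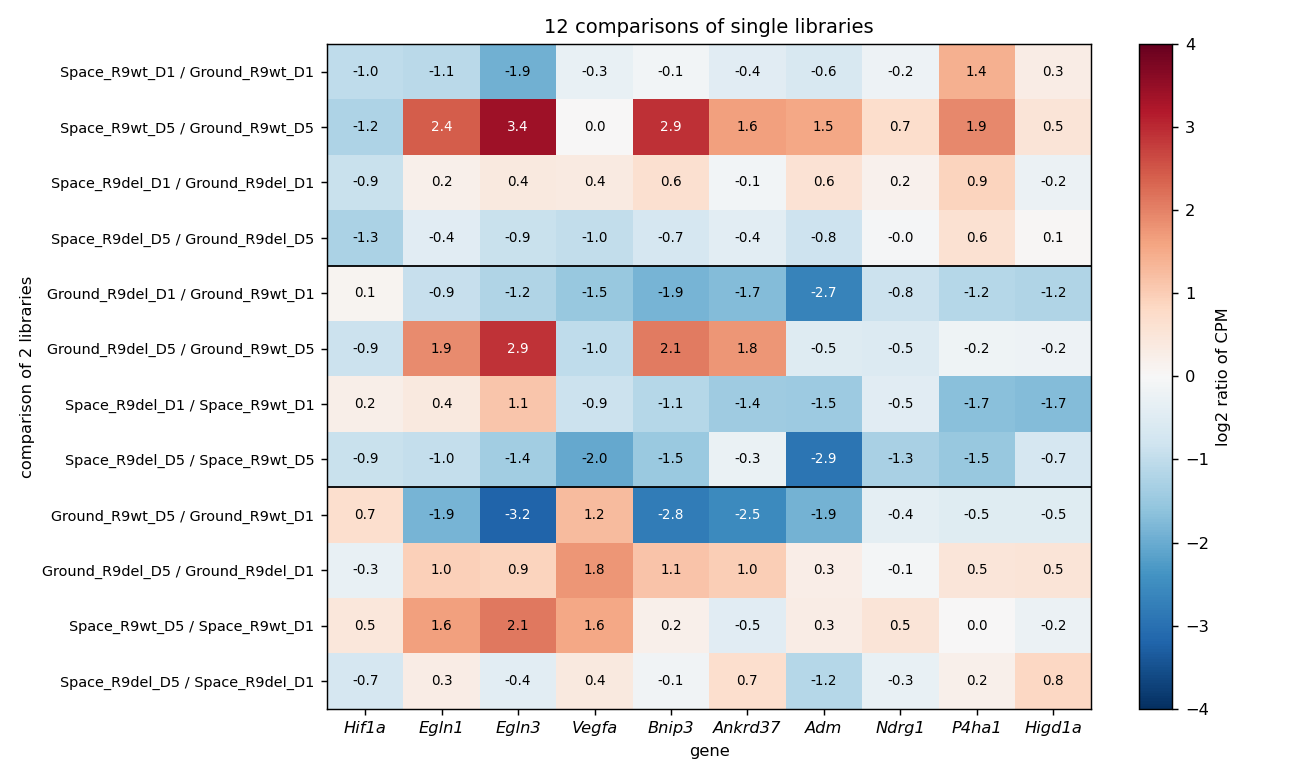
Log2 ratio of CPM for each of the 10 genes (columns) in the 12 comparisons of 2 libraries that differ in 1 variable (rows, first library over second), red for higher and blue for lower, with the ratio written in each cell. The rows that hold Ground_R9wt_D5 carry ratios of Egln3 of 3.4 and 2.9 when it is the second library and -3.2 when it is the first.

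On the ground, R9wt at D5 against D1 had 5 of the 10 genes at least 2-fold lower (Egln1, Egln3, Bnip3, Ankrd37 and Adm) against 14.1% of all genes, and 1 higher (Vegfa) against 15%. In space, the same comparison had 3 genes higher (Egln1, Egln3 and Vegfa) against 14.9% and 0 lower against 12.7%. In R9del on the ground 2 were higher (Vegfa and Bnip3) against 7.04% and 0 lower against 5.69%, and Egln1, Egln3 and Ankrd37 were just short of 2-fold higher, at log2 ratios of 0.96, 0.89 and 0.98. In R9del in space 0 were higher against 6.31% and 1 lower (Adm) against 8.09%. Whether these differences between conditions exceed the spread between cultures was not tested, since each condition had 1 library.

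For space against ground, R9wt at D5 had 6 genes higher (Egln1, Egln3, Bnip3, Ankrd37, Adm and P4ha1) against 16.8% of all genes and 1 lower (Hif1a) against 19.3%. R9wt at D1 had 1 higher (P4ha1) against 14.1% and 3 lower (Hif1a, Egln1 and Egln3) against 19.8%. The prolyl hydroxylases therefore lay on opposite sides at D1 and D5, with log2 ratios of -1.09 and 2.41 for Egln1 and -1.91 and 3.40 for Egln3. In R9del, 0 genes were past 2-fold in either direction at D1, against 9.09% higher and 12% lower over all genes, and at D5 0 were higher against 7.85% and 1 lower (Hif1a) against 15.1%.

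For R9del against R9wt, 7 of the 10 genes were at least 2-fold lower on the ground at D1 (Egln3, Vegfa, Bnip3, Ankrd37, Adm, P4ha1 and Higd1a) against 11.8% of all genes, and 0 were higher against 10.9%. In space at D1, 5 were lower (Bnip3, Ankrd37, Adm, P4ha1 and Higd1a) against 15.9% and 1 higher (Egln3) against 18.3%. In space at D5, 6 were lower (Egln3, Vegfa, Bnip3, Adm, Ndrg1 and P4ha1) against 13.5% and 0 higher against 11.8%. On the ground at D5, the comparison that holds Ground_R9wt_D5, 4 were higher (Egln1, Egln3, Bnip3 and Ankrd37) against 16.5% and 1 lower (Vegfa) against 15%. Adm was thus past 2-fold in 3 of the 4 comparisons and Bnip3 in all 4, with Bnip3 higher in the last one.

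The further pathway genes were compared in the same way. On the ground in R9wt, D5 against D1 had 10 of 21 glucose-handling targets at least 2-fold lower and 1 higher (Hk1), with a median log2 ratio of -0.87, and 9 of 29 other targets lower and 2 higher, against 14.1% of all genes lower and 15% higher. Among them, named after their values were seen, the glucose transporter Slc2a1 stood at 1317 CPM at D1 and 141 at D5, the pyruvate dehydrogenase kinase Pdk1 at 314 and 54.0, lactate dehydrogenase A (Ldha) at 7378 and 1650, and the lactate exporter Slc16a3 at 658 and 112. In space the same R9wt comparison had 0 glucose-handling targets lower and 3 higher (Hk2, Pfkfb3 and Gys1), against 12.7% and 14.9% of all genes, and Slc2a1 stood at 1094 and 1762 CPM. In R9wt at D5, 11 of 21 glucose-handling targets and 13 of 29 other targets were higher in space than on the ground (16.8% of all genes), and 0 and 1 were lower (19.3% of all genes). Both R9wt comparisons that hold Ground_R9wt_D5, D5 against D1 on the ground and space against ground at D5, share it with those of the 10 genes. Differences were also counted in comparisons without Ground_R9wt_D5. For space against ground in R9wt at D1, 3 glucose-handling and 3 other targets were higher (14.1% of all genes), and 1 and 4 were lower (19.8%). In R9del at D1, 4 and 3 were higher in space (9.09%) and 0 and 3 lower (12%). In R9del at D5, 3 and 2 were higher in space (7.85%) and 0 and 2 lower (15.1%). For R9del against R9wt on the ground at D1, 7 of 21 glucose-handling targets and 13 of 29 other targets were lower (11.8% of all genes), with median log2 ratios of -0.91 and -0.77, and 0 and 1 were higher (10.9% of all genes). In space the same genotype comparison had 4 and 7 lower at D1 (15.9% of all genes) and 2 and 11 lower at D5 (13.5% of all genes), and 1 and 0 higher at D1 (18.3%) and 0 and 1 higher at D5 (11.8%). For D5 against D1 in R9del on the ground, 2 and 5 were higher (7.04% of all genes) and 1 and 1 lower (5.69%). In R9del in space, 2 and 2 were higher at D5 (6.31% of all genes) and 1 and 0 lower (8.09%). Summed over the list, the glucose-handling targets reached 13010 CPM in Ground_R9wt_D5, and between 14310 and 31820 CPM in the other libraries, so that R9del on the ground at D1 was close to it. The HIF subunits and regulators also had their lowest sum in Ground_R9wt_D5, at 569 CPM against 715 to 914 CPM.

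**Figure D4:**
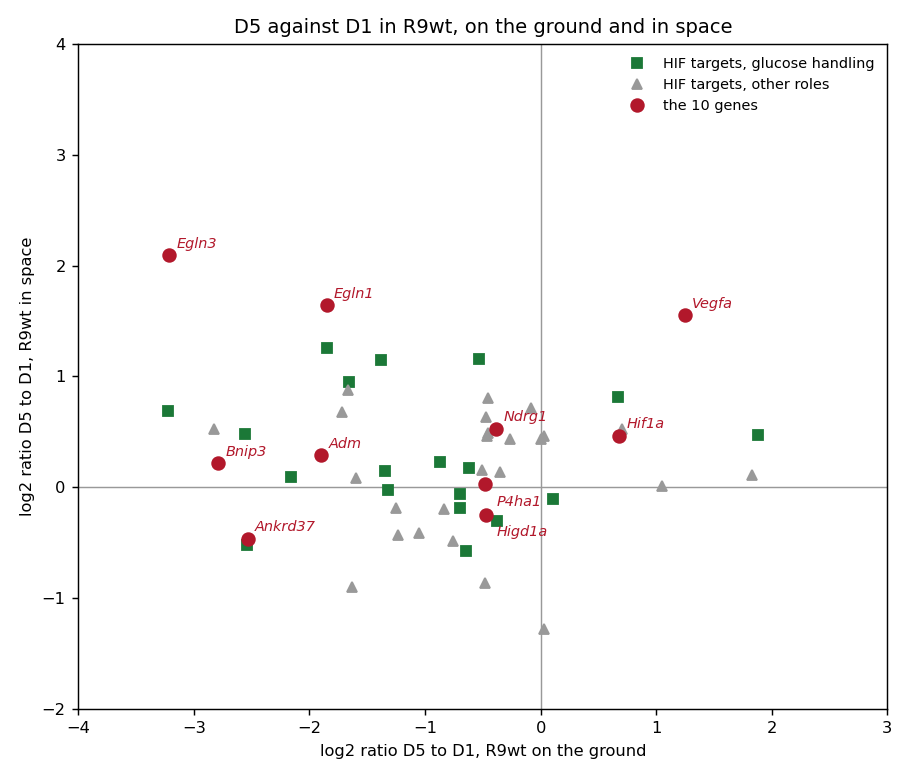
Log2 ratio of CPM at D5 to D1 in R9wt on the ground (horizontal axis) and in space (vertical axis), with 1 point per gene: the 10 genes as red circles, glucose-handling HIF targets as green squares and other HIF targets as grey triangles, the last 2 where the gene has a mean of at least 10 CPM. Egln3 lies at -3.21 on the ground and 2.09 in space, and most targets lie left of 0 on the ground.

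Whether the effect of 1 variable depended on another was tested with interaction terms in edgeR. For the interactions of location with genotype, location with day and genotype with day, 0 of the 10 genes and 0 of all genes passed an adjusted p under 0.05, while DESeq2's Wald test called 23, 83 and 156 genes, with 0 of the 10 among them. At an unadjusted p under 0.05, 1 of the 10 genes had an interaction of location and genotype, against 3.03% of all genes. It was P4ha1, whose rise in space was smaller in R9del by 0.95 on the log2 scale (log2 difference -0.95, SE 0.39, edgeR adjusted p = 1). No gene of the 10 had an interaction of location and day, against 6.79% of all genes. For genotype and day the 3 genes were Hif1a (log2 difference -1.05), Ankrd37 (2.19) and Higd1a (1.00), against 4.46% of all genes, each with an edgeR adjusted p of 1. With the interaction of location and day taken over both genotypes, the opposite differences of Egln1 and Egln3 in R9wt did not pass the test.

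The mean standardized log2 level of the 10 genes was 1.03 in Space_R9wt_D5, 0.79 in Ground_R9wt_D1 and 0.34 in Space_R9wt_D1, was 0.02 in Ground_R9del_D5, and lay between -0.68 and -0.47 in the other 4 libraries. Among 9722 other genes that averaged 10 CPM or more, Map3k1, a stress-activated kinase, followed this mean most closely over the 8 libraries (Pearson r = 0.976), with 224, 159, 148 and 204 CPM on the ground and 207, 280, 155 and 154 CPM in space in the order used above. The next were Ier3 (r = 0.964), Aldh1b1 (r = 0.954), Wdsub1 (r = 0.925) and Zfyve9 (r = 0.922). Ier3, an immediate early response gene, ranged from 16.5 CPM in Ground_R9wt_D5 to 167 CPM in Space_R9wt_D5. These are the highest of 9722 correlations over 8 points that share depth and conditions, and are given as a description.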

How the data were processed

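The authors sequenced paired-end mRNA libraries of 8 mESC cultures, aligned the reads to mm9 with TopHat2 2.0.9 per the submitters' processing notes, and deposited read counts per gene as whole numbers without normalization. The counting program, gene annotation and use of strand are not given in the sources used here. Every count column was mapped to a library by its title, and 0 columns were left unmapped. Library totals were 58238440 to 96416907 counts, so that 3 counts correspond to at most 0.0515 CPM. Counting error is small at these depths, and the spread between cultures cannot be estimated from 1 library per condition.

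Group comparisons (4 libraries against 4) used edgeR 4.0.16 (R 4.3.3) with TMM factors, filterByExpr with a minimum count of 10, and the quasi-likelihood test with Benjamini-Hochberg adjustment over all 20473 genes kept. Interaction terms were tested with the remaining variable as a covariate. Single libraries were compared as log2 ratios of CPM with a prior count of 2, without a test. The 10 genes, the pathway lists and the marker lists were chosen with earlier results of these data known. From the pathway lists, genes were named if they passed an adjusted p under 0.05, with at most 5 per list and comparison, together with Rad9a and the 5 genes most correlated with the mean of the 10. Genes called with the block, and Hk1, Hk2, Pfkfb3 and Gys1 in comparisons of 2 libraries, were named beside their counts. Other genes named otherwise are said to be so. Part of the neural marker list is not reported here.

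Libraries that share the other conditions in their labels were checked as pairs through the correlation of their deviations from group means across genes, which lay between 0.284 and 0.61 for location, 0.35 and 0.488 for genotype and 0.375 and 0.576 for day (other pairings -0.124, -0.129 and -0.152), and a fit with the pairs as a block was run beside each group comparison. Alternatives were DESeq2 1.42.0 size factors, library size alone, no filter, DESeq2's Wald test, an additive fit, a GC correction (85.5% of tested genes had a GC value), thinned counts, another prior count of 0.5 and each library left out. The scripts were tested on simulated data. Gene positions, exon overlaps and GC content came from the GENCODE annotation of mm9, and promoter windows from RefSeq on GRCm38.p6, with no conversion of coordinates.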

Additional observations from a re-analysis of the deposited data

Results flagged for a closer look

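Bnip3 in Ground_R9wt_D5 was at 45.25 CPM, far below the other 3 R9wt libraries at 293 to 340 CPM. On the log2 scale its gap to the nearest of them was 0.926 of the range of the group, above Dixon's limit for 4 samples. The level of each of the 10 genes was checked in each of the 6 groups of 4 libraries, 60 groups in all, and on that scale this was the only value past the limit, where chance flags about 1 in 20 groups. On the linear CPM scale, an alternative chosen after seeing the data, 3 of the 60 groups were past the limit. They were Bnip3 in Ground_R9wt_D5 at a ratio of 0.84, Adm in Ground_R9wt_D1 among the ground libraries (33.3 CPM against 5.14 to 8.91 CPM, ratio 0.866) and P4ha1 in Space_R9wt_D5 among the D5 libraries (455 CPM against 105 to 159 CPM, ratio 0.846). The 4 libraries of each such group are different conditions and not replicates.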

How the results depend on the processing

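Each condition had 1 library, and the 2 adjusted calls among the 10 genes, Hif1a in space and Adm in R9del, lay close to the threshold. The number called was 0 whenever any 1 library was left out, in both comparisons. For space against ground it was 0 without a filter or with a GC correction, and 2 (Hif1a and P4ha1) under the Wald test of DESeq2, with a replicate block for the matched pairs or in the additive fit. For R9del against R9wt it was 0 with DESeq2's size factors, library size alone or no filter, and 3 with the Wald test (Adm, Ndrg1 and Higd1a), the block or the additive fit (Adm, Vegfa and P4ha1 in both). The cause of these changes was not tested. The block changed no call of the 10 genes for D5 against D1. By the 2-fold rule, the number was 1 with a GC correction and 1 to 2 with a library left out for space against ground (1 without Ground_R9wt_D5 or Space_R9del_D5), 1 to 4 for R9del against R9wt and 0 to 1 for D5 against D1. The 12 single-library comparisons held 48 differences past 2-fold among 120, and 45 to 49 under the alternatives. The 4 cases without overlap between groups numbered 4 under both other scalings. Over all genes, R9del against R9wt had 417 calls and 157 without a filter, 2045 with the Wald test, 1733 with the block and 1475 with the additive fit, and 0 to 535 with a library left out (0 without Ground_R9wt_D5, Ground_R9del_D1, Space_R9wt_D1 or Space_R9del_D1, and 76, 93 and 105 without Space_R9wt_D5, Ground_R9del_D5 and Space_R9del_D5). Space against ground had 1294, and 2381 with the Wald test and 2166 with the additive fit, and 826 and 859 without Ground_R9del_D5 and Ground_R9wt_D1. Of the further pathway genes, Hif1an and P4hb lost their calls without a filter and with a GC correction, and P4hb also with the block. In space 3 of these 68 genes were called, 7 with the block, 8 with the Wald test, 8 in the additive fit and 1 without a filter or with a GC correction. In R9del 1 was called, 8 with the block, 8 with the Wald test, 5 in the additive fit and 3 with a GC correction.

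Differences near 0 changed sign, none of them past the threshold in any of these fits. On the log2 scale, Ankrd37 in space was 0.019 with DESeq2's size factors and its Wald test, 0.028 with library size alone and 0.18 with the block, and Egln3 was -0.027 with a GC correction. In R9del, the block gave 0.080 for Egln1 and 0.30 for Egln3. For D5 against D1, P4ha1 was -0.0010 with DESeq2's size factors, -0.00098 with its Wald test, -0.0043 with library size alone and -0.093 with a GC correction, Egln3 was -0.041 with the block, and Higd1a was 0.14 with the block and 0.14 with the additive fit. When 1 library at a time was left out, the difference in space ranged from -0.17 to 0.48 for Egln1, -0.44 to 0.43 for Egln3, -0.94 to 0.36 for Vegfa, -0.32 to 0.51 for Ankrd37, -0.26 to 1.13 for Adm, -0.051 to 0.41 for Ndrg1 and -0.016 to 0.50 for Higd1a. In R9del it ranged from -0.62 to 0.0032 for Hif1a, -0.42 to 0.35 for Egln1 and -0.51 to 0.32 for Egln3. For D5 against D1 it ranged from -0.30 to 0.39 for Hif1a, -0.35 to 0.54 for Egln3, -0.79 to 0.070 for Bnip3, -0.36 to 0.14 for Ndrg1, -0.71 to 0.73 for P4ha1 and -0.24 to 0.34 for Higd1a. Without a change of sign, it ranged from 0.071 to 0.73 for Egln1, -0.65 to -0.029 for Ankrd37 and -1.46 to -0.051 for Adm in that comparison, and from -0.92 to -0.28 for Ankrd37 in R9del.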
